A study of Mus musculus with 2 samples.

Results

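Apolipoprotein genes encode the proteins that package lipids for transport in plasma. The 10 genes described here, Apoa1, Apoa2, Apoa4, Apoa5, Apob, Apoc1, Apoc2, Apoc3, Apoe and Apom, were taken by symbol from the 43346 annotated genes of the deposited tables. All 10 had a row in both libraries. The 2 libraries were made from healthy B6NCrl embryonic liver (day 13.5), with male and female tissue pooled, and both tissue samples share 1 donor entry in the labels. Input to each was 10 ng of total RNA above 200 nt, with spike-in RNAs added. Annotated genes took 39182457 expected counts in replicate 1 and 37432977 in replicate 2, and the samples analysed here hold no second tissue, age, genotype or treatment. Errors are therefore the SD over n = 2, and no p-value was computed. The labels number the libraries as biological replicates 1 and 2, but with the shared donor entry the spread between them may still be technical.

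Lipoproteins carry cholesterol and triglyceride between the gut, the liver and other tissues, and their apolipoproteins hold the particle together, switch plasma enzymes on or off, and bind receptors. Apolipoprotein A-I and apolipoprotein A-II form high-density lipoprotein, apolipoprotein B is the structural protein of the triglyceride-rich and low-density particles that the liver secretes, and the C apolipoproteins regulate lipases. The liver is their main source in the adult. In the fetal liver hepatoblasts, the precursors of hepatocytes, share the organ with blood-forming cells.

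Levels are in TPM, a transcript abundance made from read counts divided by transcript length and scaled to a fixed total per library. Apoa2, Apoa1 and Apoe lay above 1000 TPM in both libraries, and Apoa4, the lowest, averaged 0.115 TPM. In all, 8 of the 10 reached 1 TPM in both libraries, against 28.1% of annotated genes. At 100 TPM the counts were 6 of 10 members and 2.61% of annotated genes, and at 1000 TPM they were 3 of 10 and 0.187%. The members' median was 369 TPM in replicate 1, beside 363 TPM in replicate 2. On the log2(TPM + 0.1) scale the median was 8.40 ± 0.00177 for the members (SD, n = 2), beside 1.43 ± 0.09 for the 20389 annotated genes with a count in both libraries.

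**Figure D1:**
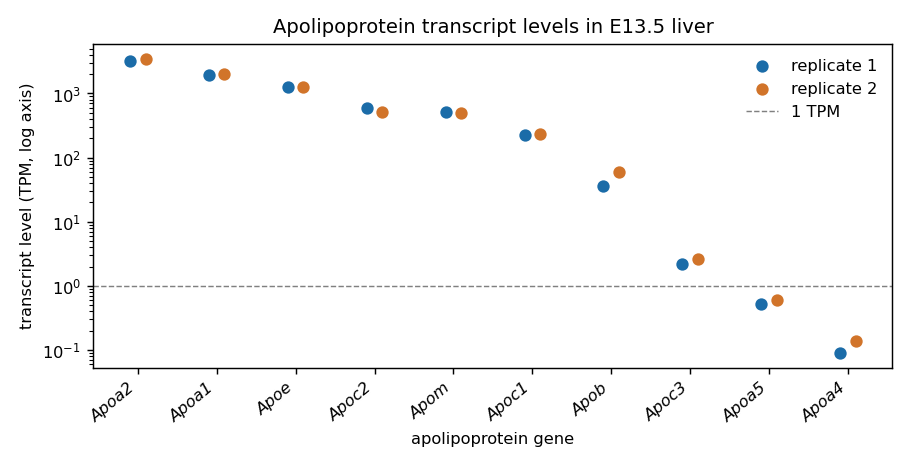
Transcript level in TPM (log axis) of each apolipoprotein gene, with 1 point for each replicate and a dashed line at 1 TPM. Apoa2, Apoa1 and Apoe lie above 1000 TPM, Apoc2, Apom and Apoc1 between 221.79 and 595.66 TPM, and Apoa5 and Apoa4 below 1 TPM.

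The chromosome 9 neighbours Apoa1, Apoa4 and Apoa5 ran from the second highest to the lowest level within 43.3 kb, so the DNA upstream of their starts is shown beside that of Apoa2, the most abundant member, and of Apob, the tested member whose replicate ratio lay farthest from the median of all genes. The sequences come from RefSeq on GRCm38.p6, all on the plus strand and 5′ to 3′. They end at the base before the RefSeq start or the start of the leading GENCODE transcript, whichever comes first. Capitals mark the motifs named after the sequences.
Apoa1 (chr9:46228380-46228579): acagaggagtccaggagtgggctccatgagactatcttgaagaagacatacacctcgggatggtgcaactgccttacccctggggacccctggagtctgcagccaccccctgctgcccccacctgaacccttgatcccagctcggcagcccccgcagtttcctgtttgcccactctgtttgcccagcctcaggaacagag
Apoa4 (chr9:46240594-46240695): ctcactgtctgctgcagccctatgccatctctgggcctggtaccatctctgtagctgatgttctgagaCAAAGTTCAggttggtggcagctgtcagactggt
Apoa5 (chr9:46268358-46268607): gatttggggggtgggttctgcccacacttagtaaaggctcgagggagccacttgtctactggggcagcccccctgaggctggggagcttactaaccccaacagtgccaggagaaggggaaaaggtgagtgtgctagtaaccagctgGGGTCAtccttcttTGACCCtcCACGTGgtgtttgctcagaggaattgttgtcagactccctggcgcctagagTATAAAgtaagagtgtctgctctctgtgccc
Apoa2 (chr1:171224804-171225053): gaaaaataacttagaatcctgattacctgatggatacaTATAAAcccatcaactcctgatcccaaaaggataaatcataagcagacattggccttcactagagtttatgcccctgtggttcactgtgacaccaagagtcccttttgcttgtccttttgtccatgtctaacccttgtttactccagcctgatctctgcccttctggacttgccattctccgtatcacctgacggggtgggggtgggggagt
Apob (chr12:7977427-7977647): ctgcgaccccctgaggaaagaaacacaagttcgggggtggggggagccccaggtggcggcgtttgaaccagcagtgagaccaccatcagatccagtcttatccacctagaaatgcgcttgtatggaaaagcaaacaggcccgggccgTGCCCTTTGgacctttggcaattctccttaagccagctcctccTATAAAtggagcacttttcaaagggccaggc

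Motif letters were searched on both strands of RefSeq windows with 250 bases before and 50 bases after each start. The motifs were chosen after the sequences and levels had been seen. Windows were found for 8 of the 10 members, Apoc1 and Apoc3 being the others. The 8 genes had 12 windows, since Apoa2, Apoa5 and Apoe had further windows at other starts. A gene was counted where any of its windows held the motif. The shares of all windows are per window, so counts and shares differ in unit. TATAAA, the letters of the TATA box, stood in a window of 4 of the 8 genes (Apoa2, Apoa5, Apob and an internal start of Apoe) and in 13.6% of all 32851 windows. Its place depends on the start taken. In Apob its first base lay at -60 from the RefSeq start and 31 bases upstream of the leading transcript's start. In Apoa5 it lay at -31 and -56 from the 2 RefSeq starts and 501 bases upstream of the leading transcript's start. In Apoa2 it lay at -212 from the RefSeq start and 240 bases upstream of the leading transcript's start. CAAAGNNCA, letters found in sites of the hepatocyte factor HNF4A, stood in Apoa4 (CAAAGTTCA, at -182 from the RefSeq start and 34 bases upstream of the leading transcript's start) and in Apob (TGCCCTTTG, the reverse strand, at -103 and 74 bases upstream), and in 6.36% of all windows. It can overlap AGGTCA, which with GGGTCA makes up the hexamers of nuclear receptor sites. GGGTCA stood in 3 of the 8 genes (Apoa5 on both strands, Apoe and Apom) and in 13.7% of windows, while AGGTCA stood in Apoc2 and in the upstream window of Apoa2 and in 16.3% of windows. In bases upstream of the leading transcript's start, GGGTCA lay at 574 and 560 in Apoa5 and at 208 in Apoe. In Apom it lay at -93 and -217, downstream of that start. AGGTCA lay at 3756 in Apoa2 and at 1192 and 1035 in Apoc2. The Apoc2 window is that of the start of Apoc2-203, which had 0 counts in both libraries. CACGTG, the E-box letters bound by USF factors, stood in Apoa5 alone of the 8, 552 bases upstream of the leading transcript's start, and in 7.15% of windows. The Apoa1 window held none of these 5 motifs, which says only that the letters are not in this window.

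Among the high-density lipoprotein genes, Apoa2 and Apoa1 were the 2 highest members. Apoa2 (ENSMUSG00000005681.8, chromosome 1, 171225054 to 171226379, plus strand of GRCm38) encodes apolipoprotein A-II and measured 3219.98 TPM in replicate 1 and 3489.01 TPM in replicate 2, ranks 20 and 17 of all annotated genes. Apoa1 (ENSMUSG00000032083.8, chromosome 9, 46228580 to 46230466, plus strand) encodes apolipoprotein A-I, which also activates the cholesterol-esterifying enzyme LCAT, and measured 1954.84 TPM in replicate 1 and 2039.79 TPM in replicate 2. Within each library Apoa2 stood above Apoa1, by 1.65-fold in replicate 1 and 1.71-fold in replicate 2 (log2 ratio of TPM 0.75 ± 0.04, SD, n = 2). By reads the order turned round, since the Apoa2 transcript is shorter: Apoa2 had 48459 and 46779 expected counts in replicates 1 and 2, and Apoa1 had 69075 and 64766. Apoa1 transcripts were also more abundant than those of Alb, the serum albumin gene, by 1.28-fold in replicate 1 and 1.14-fold in replicate 2.

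Apoe (ENSMUSG00000002985.11, chromosome 7, 19696109 to 19699188, minus strand) encodes the ligand by which remnant particles are taken up by liver cells. Its level was 1246.90 TPM in replicate 1 and 1261.62 TPM in replicate 2, an SD of 10.4 TPM around 1254 TPM. Together Apoa2, Apoa1 and Apoe made up 83.1% ± 1.03 of the members' TPM (SD, n = 2). Macrophages are a known further source of Apoe in adult tissue. All 10 macrophage markers looked at were at or above 1 TPM in both libraries, against 28.1% of annotated genes. Their summed level was 263 TPM in replicate 1 and 276 TPM in replicate 2. The 10 hepatoblast markers summed to 13434 and 15139 TPM in replicates 1 and 2. The part of either cell type in the Apoe level was not tested.

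Of the C apolipoproteins, Apoc2 and Apoc1 were abundant and Apoc3 was scarce. Apoc2 (ENSMUSG00000002992.12, chromosome 7, 19671579 to 19677941, minus strand) encodes the cofactor that activates lipoprotein lipase and measured 595.66 TPM in replicate 1 and 517.08 TPM in replicate 2. Apoc1 (ENSMUSG00000040564.9, chromosome 7, 19689481 to 19692660, minus strand), whose protein in human slows the uptake of remnants and inhibits the cholesteryl ester transfer protein, measured 221.79 and 231.89 TPM in replicates 1 and 2. Apoc3 (ENSMUSG00000032081.5, chromosome 9, 46232933 to 46235636, minus strand) encodes an inhibitor of lipoprotein lipase and of remnant uptake. It had 35 counts in each library, or 2.18 TPM in replicate 1 (exact 95% Poisson interval of counting 1.52 to 3.03) and 2.63 TPM in replicate 2 (1.83 to 3.66). Transcripts of the activator Apoc2 thus exceeded those of the inhibitor Apoc3 by 273-fold in replicate 1 and 197-fold in replicate 2.

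Apom (ENSMUSG00000024391.7, chromosome 17, 35128997 to 35132050, minus strand) encodes a lipocalin of high-density lipoprotein that carries sphingosine-1-phosphate. It measured 515.40 TPM in replicate 1 and 494.67 TPM in replicate 2. Apoc2 lay above it by a log2 ratio of 0.14 ± 0.10 (SD, n = 2), and the Apoc2 mean exceeded that of Apom by less than the SD of Apoc2, 55.6 TPM. All other neighbours in the order of levels, Apoa2, Apoa1, Apoe, Apoc2, Apom, Apoc1, Apob, Apoc3, Apoa5 and Apoa4, were farther apart. No neighbours overlapped between the libraries, though the lower Apoc2 value, 517.08 TPM, lay just above the higher Apom value, 515.40 TPM.

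Apob (ENSMUSG00000020609.10, chromosome 12, 7977648 to 8016835, plus strand) was intermediate, with a level of 35.58 TPM (replicate 1) and 59.18 TPM (replicate 2). Its transcript is by far the longest of the family, so this modest level rested on 11862 counts in replicate 1 and 17004 in replicate 2. Per length, Apoa1 transcripts were 54.9 times as abundant as Apob transcripts in replicate 1 and 34.5 times in replicate 2. The Apob level here is that of all its transcripts, of which the full transcript Apob-202 made up 21.53 TPM in replicate 1 and 34.19 TPM in replicate 2.

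Apoa5 and Apoa4 were below 1 TPM in both libraries. Apoa5 (ENSMUSG00000032079.7, chromosome 9, 46268633 to 46271919, plus strand), whose product promotes lipolysis of triglyceride-rich particles, had 46 counts in replicate 1 and 45 in replicate 2. This was 0.53 TPM (counting interval 0.388 to 0.707) and 0.60 TPM (0.438 to 0.803) in replicates 1 and 2. Apoa4 (ENSMUSG00000032080.6, chromosome 9, 46240696 to 46243459, plus strand) encodes an apolipoprotein of the intestine and, in rodents, the liver. It had 6 counts in replicate 1 and 8 in replicate 2, or 0.09 TPM (0.0330 to 0.196) and 0.14 TPM (0.0604 to 0.276). The counting intervals of Apoa5 and Apoa4 did not overlap within either library. In whole liver, few cells with the transcript and little transcript per cell cannot be told apart, here and for every other level.

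Together the 10 genes summed to 7793 TPM in replicate 1 and 8097 TPM in replicate 2, or 0.815% ± 0.0299 of the TPM of annotated genes. Globin transcripts of the erythroid cells took 34.6% of that TPM in replicate 1 and 31.2% in replicate 2. With globins left out of the total, the apolipoproteins held 1.21% in each library, with an SD of 0.000679. Set against Afp, the fetal plasma protein alpha-fetoprotein and the highest hepatoblast marker, the summed apolipoprotein TPM was 1.38-fold in replicate 1 and 1.19-fold in replicate 2.

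The label of the tissue was checked against markers. Their counts stand beside 28.1% of annotated genes at or above 1 TPM in both libraries. All 10 hepatoblast markers reached 1 TPM in both libraries, with Afp, Trf and Alb at 6219 ± 832, 3043 ± 15.3 and 1660 ± 183 TPM, as did all 9 erythroblast markers, led by Hba-a2, Hbb-bs and Alas2. Of 10 macrophage markers C1qb, Vcam1 and C1qa were the highest, at 62.03 ± 2.01, 46.5 ± 6.58 and 30.01 ± 2.05 TPM. Intestine and visceral yolk sac also make apolipoproteins. Of 8 intestinal markers 3 reached 1 TPM in both libraries, Krt20, Fabp2 and Lgals4, a count near the share of all annotated genes for so short a list. The summed level over the list was 37.9 TPM in replicate 1 and 45.8 TPM in replicate 2. The others were Vil1 and Cdh17, at 0.665 and 0.225 TPM on average, and the intestinal regulators Cdx1 and Cdx2 at no more than 0.05 TPM, while Sis was listed at 0. Of 9 yolk sac markers 5 reached 1 TPM, with Spink1, Cited1 and Rhox5 highest and a sum of 139 and 143 TPM in replicates 1 and 2. The remaining 4 were Sox7 at 0.78 TPM, Tdh at 0.075 TPM and the yolk sac receptors Lrp2 and Cubn at 0.065 and 0.045 TPM on average. The cell of origin of Krt20, Fabp2, Spink1 and Cited1 transcripts was not tested.

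The members lay in 2 clusters and at 3 single positions, and the clusters held nearly equal shares of the members' TPM with different inner patterns. On chromosome 9 Apoa1, Apoc3, Apoa4 and Apoa5 together held 25.1% in replicate 1 and 25.2% in replicate 2, and Apoa1 alone gave 99.8% ± 0.0155 of the cluster (SD, n = 2). Apoc3, whose end lies 2466 bp from that of Apoa1 and which is read from the other strand, was 897-fold below Apoa1 in replicate 1 and 776-fold below it in replicate 2. The next gene, Apoa4, was 21720-fold below Apoa1 in replicate 1 and 14570-fold below it in replicate 2, values that rest on the 6 and 8 counts of Apoa4. Apoa5 was 3688-fold below Apoa1 in replicate 1 and 3400-fold below it in replicate 2. The low levels did not extend past the cluster: Zpr1, 44.5 kb from the Apoa1 start, measured 39.78 TPM in replicate 1 and 45.03 TPM in replicate 2.

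On chromosome 7 Apoe, Apoc1 and Apoc2 held 26.5% of the members' TPM in replicate 1 and 24.8% in replicate 2, and all 3 were above 200 TPM. Apoe exceeded Apoc1 by 5.62-fold in replicate 1 and 5.44-fold in replicate 2, and Apoc2 by 2.09-fold and 2.44-fold in the same libraries. Apoc4, a further apolipoprotein gene that ends 141 bp from Apoc2, was lower than the 3 members, with 74.43 TPM in replicate 1 against 58.65 in replicate 2. Apoc2 exceeded it by a log2 ratio of 3.07 ± 0.10 (SD, n = 2). Tomm40, a mitochondrial import gene on the other side of Apoe and 16.3 kb from its start, measured 124.24 TPM in replicate 1 and 111.81 TPM in replicate 2.

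**Figure D2:**
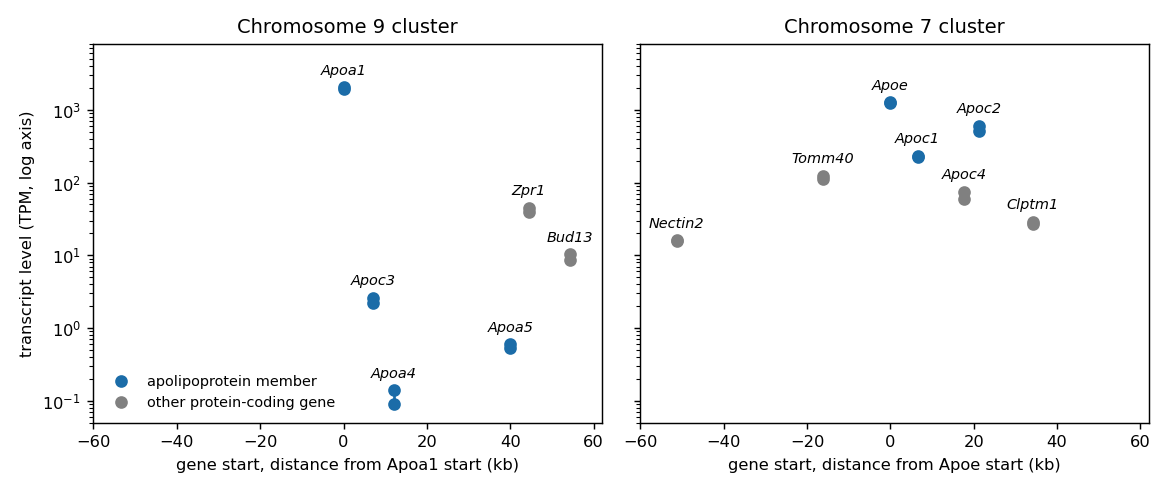
Level in TPM (log axis) of the protein-coding genes around Apoa1 (left) and Apoe (right), placed by the distance of their start from the start of that gene in kb along its direction of transcription, with 1 point for each replicate. The chromosome 9 members run from 2039.79 TPM (Apoa1) down to 0.09 TPM (Apoa4), while the chromosome 7 members all lie above 200 TPM.

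Some annotated genes overlap the members, and whether strand was used in the counting is not stated in the labels or headers. The antisense gene Gm10680, which overlaps Apoa4, was listed at 0 in both libraries. In GENCODE M21 the gene Gm44805 shares exons with Apoc2, and 2 of the 5 transcripts counted as Apoc2 in the files belong to it there. For the whole gene, Apoc2 had a posterior SD of 3.54 counts in replicate 1 and 5.71 in replicate 2, beside 11453 and 8982 counts. This SD does not cover the split from Gm44805, whose transcripts are inside the Apoc2 total. Of these, Gm44805-202 had 90.68 and 259.83 counts in replicates 1 and 2, with posterior SDs of 113.1 and 161.8. Gm44805-201 had 59.25 and 32.11 counts, with posterior SDs of 6.81 and 5.43.

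The deposited transcript tables held 35 annotated transcripts of the 10 genes, of which 20 carried at least 5% of their gene's TPM in a library. By TPM the leading transcript was the same in both libraries for 10 of 10 genes, and for 6 of them it held over 80% of the gene's TPM on average. The 6 include Apom and Apoa4, each with a single annotated transcript, for which both results were fixed in advance. They also include Apoa5, at 66.0% in replicate 1 and 100% in replicate 2. By posterior mean TPM, Apoa5-201 and Apoa5-202 each held 50% of Apoa5 in replicate 1, so neither led there. By posterior mean TPM 5 genes passed, and the share over all annotated genes is not given here. In 6 of the 10 leading transcripts there were 4 exons, as in 11.2% of 58797 protein-coding transcripts of GENCODE M21. Apom and Apoa4 had 1 annotated transcript each, Apoa1-201 held 99.4% ± 0.0974 of Apoa1 and Apoc1-201 held 95.3% ± 0.595 of Apoc1, beside 5.15% and 4.31% for Apoc1-202 in replicates 1 and 2.

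Most of the transcript choice left the coding exons as they were. In Apoa2 the 4 annotated transcripts share the same coding exons of 306 nt and differ at their ends. Apoa2-201 held 61.8% of the gene's TPM in replicate 1 and 57.3% in replicate 2, and Apoa2-204, which starts at 171225054 rather than 171225082, held 28.5% and 25.9% in the same libraries. Apoa2-202, whose start lies at 171225091, differed most between the libraries, with 7.21% in replicate 1 and 14.9% in replicate 2. Its counts of 3156 and 6352 carried posterior SDs of 463 and 689 in replicates 1 and 2.

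In Apoe, Apoe-209 held 81.9% ± 0.195 and Apoe-206, which begins farther upstream, held 16.3% ± 0.255 (SD, n = 2), and the transcripts with these coding exons of 933 nt made up 99.1% ± 0.268 of the gene. In Apoc2 the start used lay at 19676864 for Apoc2-201, with 61.3% in replicate 1 and 65.3% in replicate 2, and at 19673920 for Apoc2-202, with 37.2% and 31.2% in the same libraries, and their coding length of 291 nt was shared. For the scarce Apoc3 and Apoa5 the shares rested on few counts. Apoc3-201 held 71.6% in replicate 1 and 62.2% in replicate 2 and Apoc3-202 held 21.1% and 31.7%, while Apoc3-203 had 7.34% in replicate 1 and Apoc3-204 had 6.11% in replicate 2, each listed at 0 in the other library. Apoa5-201 held 66.0% of Apoa5 in replicate 1 and 100% in replicate 2, with a posterior SD of 12.08 on 29.1 counts and of 10.33 on 45 counts, and Apoa5-202 held the other 33.96% in replicate 1.

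Apob was the abundant exception. Its full transcript Apob-202, with 29 exons and a coding length of 13515 nt, measured 21.53 TPM in replicate 1 and 34.19 TPM in replicate 2. The short Apob-204, with 9 exons, 1118 nt and a coding length of 987 nt, covers the 5′ part of the gene and measured 13.96 TPM in replicate 1 and 24.83 TPM in replicate 2. Apob-202 thus held 59.2% ± 1.95 of the gene's TPM, but 94.9% ± 0.363 of its counts, and Apob-204 held 40.6% ± 1.92 of the TPM on 4.80% ± 0.366 of the counts (SD, n = 2). The gene's TPM therefore depends on how the authors' model placed 539 and 861 counts on the short transcript in replicates 1 and 2.

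**Figure D3:**
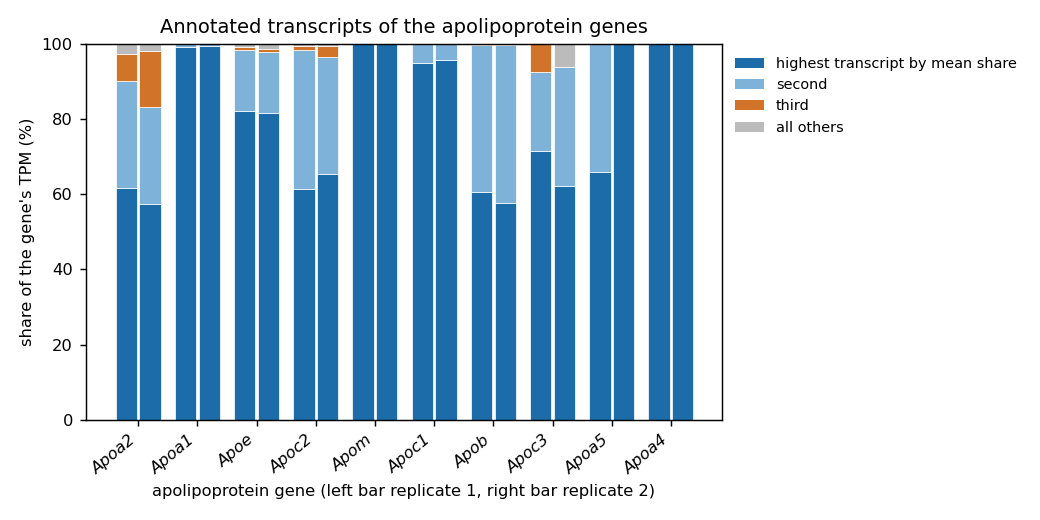
Share of each gene's TPM held by its annotated transcripts (%), with replicate 1 as the left and replicate 2 as the right bar of each gene. The leading transcript took between 57.3% and 100% of the gene in every bar, and the second transcript was largest in Apob, at 39.2% and 42.0% in replicates 1 and 2.

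Between the libraries, expected counts were scaled by TMM and given as log2 of replicate 2 over replicate 1 with exact 95% binomial counting intervals. No tested member was more than 1.5-fold apart (0 of 9), where 8.16% of the 15997 genes tested were. Apoa4 was not tested, its mean count being under 10. With spike-in scaling 8 of the 9 passed 1.5-fold, all lower in replicate 2, as did 60.2% of genes in either direction, and by the ratio of deposited TPM Apob alone passed, as did 10.3% of genes. The counting intervals with TMM left out 0 for 7 of the 9, beside 38.8% of all genes tested. These 7 are the members with at least 1000 counts in both libraries, and of all 5772 such genes the interval left out 0 for 62.7%. Of the 7, Apoc2, Apom, Apoe, Apoc1, Apoa1 and Apoa2 were lower in replicate 2 and Apob was higher, directions that turn round for Apoa1, Apoa2, Apoc1 and Apoe by deposited TPM and for Apob by spike-in scaling. By the ratio of deposited TPM instead, the median over all genes tested moved to 0.15, 7 of the 9 members were higher in replicate 2, and 3 of the 9 lay above that median. With spike-in scaling the median of all genes moved to -0.64, and Apob, at -0.12, lay above it.

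The 6 members lower in replicate 2 by TMM-scaled counts, of which Apoa1, Apoa2, Apoc1 and Apoe were higher by deposited TPM, were all under 1200 nt in length with at least 1000 counts. They had a median ratio of -0.12, and of the 954 annotated genes of this kind 796 were below 0, with a median of -0.14. The part of transcript length in these ratios was not tested. Apoc2 had the lowest ratio, -0.35 with an interval of -0.39 to -0.31, and its neighbour Apoc4 had -0.50. Apom followed at -0.22 (-0.25 to -0.18), and Apoe, Apoa1, Apoc1 and Apoa2 lay between -0.14 and -0.05. Apoc3 had the same 35 counts in each library with an interval of -0.72 to 0.72, and the interval of Apoa5, at -0.03, ran to 0.59.

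Apob was higher in replicate 2 with a ratio of 0.52 (0.48 to 0.55) or 1.43-fold by TMM-scaled counts, and 1.66-fold by deposited TPM, while with spike-in scaling it was -0.12, beside a median of -0.64 over all genes. The counts of both Apob-202 and Apob-204 stood in the same direction, at 1.43-fold and 1.60-fold after TMM scaling. Of the 5772 genes whose count reached 1000 in each library, 6 had a higher ratio than Apob. The genes of at least 8000 nt had a median ratio of 0.07, and none of these 71 lay above Apob. The hepatoblast markers had a median of -0.03, with Afp at 0.12, Alb at 0.07 and Trf at -0.16. Mttp, the transfer protein that loads lipid onto apolipoprotein B, had 0.29. It is 1 of 18 genes of particle assembly and secretion, which had a median of 0.07, with 11 of the 18 above 0.

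**Figure D4:**
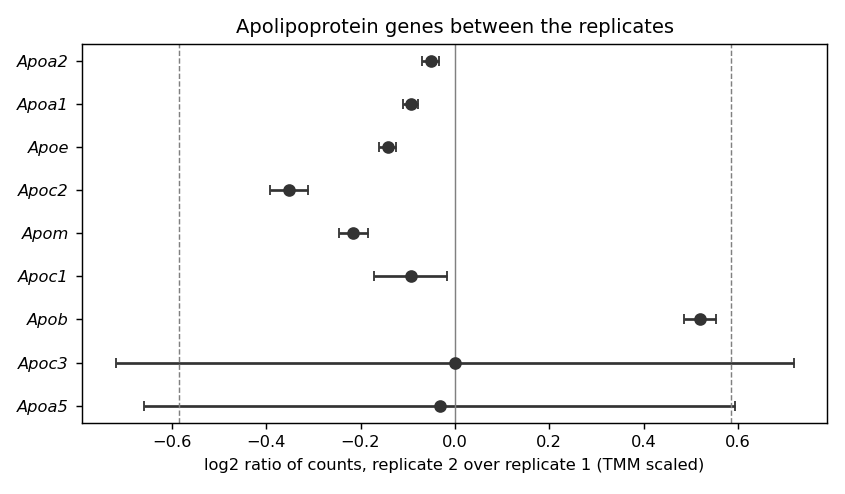
Log2 ratio of TMM-scaled counts, replicate 2 over replicate 1, of the 9 tested apolipoprotein genes, with exact 95% counting intervals as bars and dashed lines at 1.5-fold in either direction. Apob lies at 0.52 (-0.12 with spike-in scaling, where the median of all genes is -0.64) and Apoc2 at -0.35, and the intervals of Apoc3 and Apoa5 span 0.

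Genes that act with the apolipoproteins, and further genes of such names, were read as lists. Of their 109 distinct genes, counted once where lists share a gene, 87 reached 1 TPM in both libraries, against 28.1% of annotated genes. The count of each list below stands beside this same share. For the list medians, the median of the 20389 annotated genes with a count in both libraries was 1.43 ± 0.09 as log2(TPM + 0.1). Of 18 genes of particle assembly and secretion, 17 did so, with a median of 60.9 ± 3.31 TPM (SD, n = 2). The highest were the chaperones and disulfide isomerases of the endoplasmic reticulum Hspa5, P4hb and Pdia3, at 541 ± 91.0, 388 ± 28.2 and 292 ± 52.4 TPM. Mttp measured 23.08 TPM in replicate 1 and 31.35 TPM in replicate 2, and Tm6sf2 alone was below 1 TPM, at 0.88 and 0.96 TPM in the same libraries.

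All 6 genes of Apob mRNA editing were above 1 TPM. In editing, the deaminase Apobec1 changes a codon of the Apob transcript to a stop, which in rodents also happens in liver. The general RNA-binding proteins Hnrnpab, Syncrip and Celf2 led the list at 235 ± 14.5, 58.2 ± 15.9 and 10.3 ± 0.566 TPM. Apobec1 itself measured 3.28 TPM in replicate 1 and 2.53 TPM in replicate 2, and its cofactor A1cf 3.62 and 5.07 TPM. The tables do not separate edited from unedited Apob transcripts.

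Among genes of high-density lipoprotein and cholesterol export 6 of 8 reached 1 TPM, and the median was 6.91 ± 0.364 TPM. The receptor Scarb1 led at 63.9 ± 6.19 TPM, followed by Lcat, the enzyme that apolipoprotein A-I activates, with 28.02 and 29.62 TPM in replicates 1 and 2, and by the exporter Abcg1 at 8.40 ± 0.0566 TPM. The transfer protein Pltp measured 7.16 ± 0.403 TPM, and Abca1, which loads cholesterol onto apolipoprotein A-I, 6.67 ± 1.13 TPM. The biliary sterol exporters Abcg8 and Abcg5 were below 1 TPM, at 0.375 and 0.26 TPM on average.

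Lipases and their regulators reached 1 TPM in 11 of 12 cases, with a median of 14.5 ± 0.781 TPM. Lpl, the lipoprotein lipase that Apoc2 activates, was highest with 44.38 and 49.90 TPM in replicates 1 and 2, and the lysosomal Lipa measured 34.9 ± 6.76 TPM. The hepatic lipase Lipc measured 18.7 ± 2.81 TPM, and the endothelial lipase Lipg alone was below 1 TPM, at 0.265 TPM on average.

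Of 18 receptor genes 15 reached 1 TPM, with a median of 9.21 ± 1.13 TPM. The chaperone Lrpap1 was highest at 74.1 ± 7.57 TPM, and Scarb1 measured 63.9 ± 6.19 TPM. Of receptors that bind apolipoprotein E, Lrp1 measured 14.3 ± 0.898 TPM and Lrp8 3.175 ± 0.00707 TPM. Vldlr measured 1.62 TPM in replicate 1 and 1.38 TPM in replicate 2. Sorl1, Lrp2 and Cubn were below 1 TPM.

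Transcription factors of liver and lipid genes were at lower levels, with 23 of 29 at or above 1 TPM in both libraries and a median of 3.295 ± 0.0919 TPM. Srebf1, Nr1h2 and Srebf2, regulators of sterol and fatty acid genes, led at 39.2 ± 0.827, 39.1 ± 4.07 and 36.8 ± 2.04 TPM. Hnf4a, the factor whose letters were searched in the promoters, measured 11.03 TPM in replicate 1 and 13.73 TPM in replicate 2. Nr1d1, Foxa1, Nr2f1 and Nr0b2 were below 1 TPM in both libraries, at 0.37 to 0.72 TPM on average.

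Of other genes with apolipoprotein or related names, 10 of 19 reached 1 TPM, with a median of 1.03 ± 0.0141 TPM. Apoh, the phospholipid-binding beta-2-glycoprotein of plasma, was highest with 115.45 and 132.01 TPM in replicates 1 and 2, followed by Apoc4 at 66.5 ± 11.2 TPM and Clu, the secreted chaperone clusterin, at 48.7 ± 0.247 TPM.

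**Figure D5:**
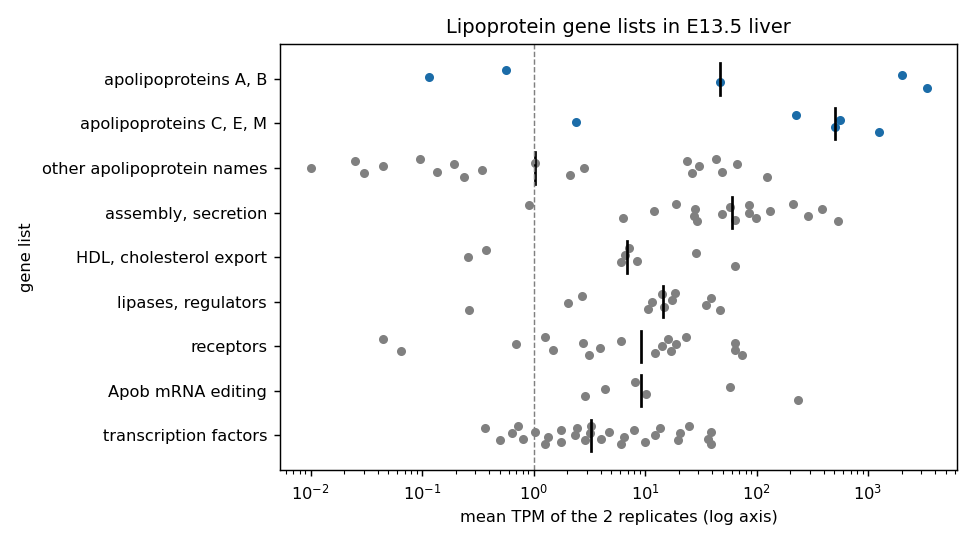
Mean TPM over the 2 replicates (log axis) of each gene in the apolipoprotein families (blue) and in the related gene lists (grey), with a vertical bar at each list's median and a dashed line at 1 TPM. The list medians are 60.9 TPM for assembly and secretion, 3.295 TPM for transcription factors and 1.03 TPM for other apolipoprotein names.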

How the data were processed

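For each library a gene table and a transcript table were used, made on mm10 with GENCODE M4, per the deposited readme. Their aligner and quantifier are not given in the sources used. Expected counts are the authors' estimates of reads per gene or transcript, in which reads that match several features are divided by a model, per the file headers. The deposited TPM values add up to 1 fixed total in a library, spike-ins and transfer RNAs included. Transcript shares are deposited as a percent column and were computed again from TPM.

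Symbols, positions and transcript names were taken by ID from GENCODE M21 (GRCm38, the same assembly as mm10), and 42462 of 43346 gene IDs matched a symbol. Promoters came from RefSeq on GRCm38.p6. The labels define 1 group of n = 2, so values are given per library with mean and SD. Replicate ratios are log2 of expected count plus 0.5 after TMM scaling, over genes whose mean count was 10 or more. Rounded expected counts went into edgeR 4.0.16 (TMM factors) and DESeq2 1.42.0 (size factors) in R 4.3.3, and the ratio step was tested on simulated data. Intervals used scipy 1.17.1, tables pandas 2.3.3 and numpy 2.4.6, and figures matplotlib 3.10.9, all in Python 3.11.15. Counting intervals cover counting error only. A count of 3 at an effective length of 1000 nt equals 0.0792 TPM in replicate 1 and 0.0882 TPM in replicate 2.

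The members and lists were chosen with earlier results of these data known. Named were all 10 members, their transcripts with at least 5% of the gene's TPM in a library, the 3 highest genes of each other list with those below 1 TPM in both libraries where they are 5 or fewer, and a set of fixed genes such as Mttp, Hnf4a and Lpl, of which some are not reported here. Zpr1, Tomm40, Gm10680 and Gm44805 were named for their position and Sox7, Tdh, Vil1 and the other low markers for the check of the tissue. Alternatives covered the unit, the pseudocount, the level threshold, the posterior mean TPM, the scaling and each library alone.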

Additional observations from a re-analysis of the deposited data

How the results depend on the processing

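No paired analysis was possible because the labels define only 1 group. The share of the 10 genes in the TPM of annotated genes, 0.815%, was 0.537% of expected counts and 1.21% of TPM without globins. The median log2(TPM + 0.1) of 8.40 was 8.41 with a pseudocount of 1 and 8.38 with posterior mean TPM. The median replicate ratio of -0.09 was -0.73 with spike-in scaling and 0.0642 as a ratio of deposited TPM, where the median of all genes tested moved to -0.64 and 0.15. By the deposited TPM, Apoa1 at 0.0614, Apoa2 at 0.116, Apoc1 at 0.0642 and Apoe at 0.0169 turned round, and by spike-in scaling Apob did, at -0.12, still above the median of all genes. With spike-in scaling 8 of 9 members, and by deposited TPM 1 of 9, were more than 1.5-fold apart, against 0 with TMM. On expected counts, which are not corrected for length, Apoa2 over Apoa1 reversed to -0.49, the chromosome 9 cluster held 32.6% and the chromosome 7 cluster 29.2% of the members. The length correction sets these 3 differences and that of the 0.537% share, and the smaller total without globins sets the 1.21%. The cause of the others was not tested. With either library alone the share of TPM was 0.794% and 0.836%, Apoa2 over Apoa1 was 0.72 and 0.77, and 5 and 6 genes had a leading transcript over 80%. Counts of genes at or above 1 TPM stayed within 1.5 times under thresholds of 0.5 and 5 TPM, except that of transcription factors at 5 TPM. Depth limits Apoa4, Apoa5 and Apoc3, whose counts were between 6 and 46 in each library.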
